A study of Rattus norvegicus with 18 samples.

Results

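The genes described here are 27 genes of GABA and glycine signalling, chosen by symbol from a list drawn up by function: 11 subunits of the GABA-A receptor, 2 of the GABA-B receptor, 7 genes that make, load, take up or break down GABA, the anchor gephyrin with 3 glycine receptor subunits, and 3 transporters of chloride or glycine. All 27 were found among the 32623 genes listed for every pup, and all 27 passed the filter on low counts that 15703 genes passed. Each was measured by RNA-seq in the prefrontal cortex (PFC) of 18 Sprague Dawley rat pups at postnatal day 14 (P14), 6 per group. SAL pups came from dams given saline. PNO dams were gavaged with oxycodone (oxy), an opioid analgesic, at 15 mg/kg/day from birth of the litter up to weaning, so that oxy reached the pups through the milk. IUO dams were treated from before mating, at 10 mg/kg/day rising to 15 mg/kg/day, and on through gestation up to weaning, so that exposure through the placenta preceded exposure through the milk. The labels tie no library to a dam, litter or sex, so that the p-values measure the spread between these pups, and litter effects cannot be told apart from exposure. Bulk tissue was sequenced, and fewer cells of a type cannot be told apart from less RNA per cell.

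GABA is the main inhibitory transmitter of the cortex, made from glutamate in interneurons, loaded into vesicles and cleared by transporters on neurons and glia. It opens the GABA-A receptor, a chloride channel assembled from several subunits whose mix sets where the receptor sits and how fast it closes, and it acts through the GABA-B receptor, which couples to G proteins. Glycine opens a related chloride channel and is also a co-agonist of NMDA receptors. In the maturing brain the effect of chloride channels turns from excitatory to inhibitory as the chloride importer NKCC1 gives way to the exporter KCC2.

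Libraries held 18381819 to 24518150 expected counts in SAL, 18547404 to 25649851 in PNO and 18643283 to 26084780 in IUO. SAL replicate 6 had the lowest mean correlation with the other pups. The mean length of the transcripts in a library, weighted by TPM (a level corrected for transcript length and scaled to a fixed total per pup), ranged from 1420 to 1786 bases in SAL, 1459 to 1712 in PNO and 1517 to 1730 in IUO. Cortical markers were present in every pup, with a mean of 108.6 to 257 CPM (counts scaled to library size) over 10 glutamatergic genes. Markers of neighbouring regions varied between pups, with a mean over 12 striatal genes of 18.5 to 147 CPM in SAL, 23.9 to 121 in PNO and 41.9 to 177 in IUO, and over 10 choroid plexus genes of 0.675 to 55.3, 0.906 to 99.3 and 0.520 to 26.2 CPM. Among these markers, *Npy* read 0 in 7 pups, *Cbln3* and *Gbx2* in 3 each, *Cldn2* in 2 and *Otx2* in 1.

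Promoter sequence is shown for 6 genes, a pair from each of 3 groups of genes that varied together between pups, as described further on. The 250 bases before the annotated start were taken from RefSeq (build GRCr8), where 24 of the 27 genes were matched and the start was the first base of the gene for 11 of them. Capitals mark every match, on either strand, to GGGCGG (the GC box), to CCAAT (the CAAT box), to TATAAA (the core of a TATA box), to TAATTA (a homeodomain core), to TGACGTCA (the cyclic AMP response element) and to GCGNGGGCG (an EGR site, which can overlap a GC box), and each sequence reads 5′ to 3′ along its gene.
Gad2 (chr17:89671468-89671717, plus strand): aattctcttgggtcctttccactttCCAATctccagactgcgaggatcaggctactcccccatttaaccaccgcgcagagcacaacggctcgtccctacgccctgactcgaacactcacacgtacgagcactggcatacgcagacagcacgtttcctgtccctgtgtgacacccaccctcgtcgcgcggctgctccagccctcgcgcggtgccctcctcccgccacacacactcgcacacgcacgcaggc
Slc32a1 (chr3:167686995-167687244, plus strand): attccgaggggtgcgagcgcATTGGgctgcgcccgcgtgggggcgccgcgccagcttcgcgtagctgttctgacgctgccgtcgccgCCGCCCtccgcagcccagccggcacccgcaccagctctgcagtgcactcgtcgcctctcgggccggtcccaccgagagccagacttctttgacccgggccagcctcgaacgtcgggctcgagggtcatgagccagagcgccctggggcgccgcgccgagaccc
Gabra4 (chr14:36944497-36944746, plus strand): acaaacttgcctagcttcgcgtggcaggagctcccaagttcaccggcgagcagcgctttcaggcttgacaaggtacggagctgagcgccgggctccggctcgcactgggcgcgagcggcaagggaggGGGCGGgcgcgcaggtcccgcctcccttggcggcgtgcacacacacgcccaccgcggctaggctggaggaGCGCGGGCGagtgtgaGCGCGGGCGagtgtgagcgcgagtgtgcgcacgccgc
Gabrd (chr5:171252710-171252959, minus strand): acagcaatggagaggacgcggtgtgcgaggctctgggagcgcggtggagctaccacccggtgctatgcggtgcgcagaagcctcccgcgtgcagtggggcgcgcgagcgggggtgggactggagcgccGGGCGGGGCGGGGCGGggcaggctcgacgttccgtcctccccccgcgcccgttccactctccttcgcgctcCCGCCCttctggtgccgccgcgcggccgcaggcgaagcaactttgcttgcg
Slc12a5 (chr3:174115583-174115832, plus strand): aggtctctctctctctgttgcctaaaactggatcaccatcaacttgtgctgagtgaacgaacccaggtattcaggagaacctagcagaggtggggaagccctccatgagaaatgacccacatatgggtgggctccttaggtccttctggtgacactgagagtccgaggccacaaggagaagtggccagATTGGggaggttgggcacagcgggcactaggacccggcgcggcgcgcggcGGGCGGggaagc
Slc6a11 (chr4:148853307-148853556, plus strand): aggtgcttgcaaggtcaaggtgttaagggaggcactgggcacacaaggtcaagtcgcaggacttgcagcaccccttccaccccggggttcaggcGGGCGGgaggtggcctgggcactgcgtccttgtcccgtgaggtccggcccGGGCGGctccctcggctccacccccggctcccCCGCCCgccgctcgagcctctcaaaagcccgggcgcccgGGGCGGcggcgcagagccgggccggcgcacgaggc

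The 6 windows were rich in G and C, from 59.2% in *Slc12a5* to 74.0% in *Gabrd*, against a median of 51.2% over all 33469 promoters of the table. They held 11 to 35 CpG dinucleotides, where the median promoter held 5. The *Gabrd* window carried 4 GC boxes, 3 of them overlapping in a row between positions -122 and -107, and the *Slc6a11* window also carried 4. The *Gabra4* window held a GCGNGGGCG match at positions -53 to -45 and another at -37 to -29. Over the 24 matched genes, GGGCGG was found in 17 (30.5% of all promoters), CCAAT in 9 (34.0%), TATAAA in 3 (12.9%), GCGNGGGCG in 3 (4.29%) and TGACGTCA and TAATTA in 0 (1.59% and 4.86%). These matches describe letters in a window only.

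The levels of the genes, compared as TPM, spanned from below 1 to 442 on average. *Gabbr1*, the GABA-B subunit that binds GABA, had the highest level at 442 ± 54.7 TPM (SD, n = 18), between 369 and 543 in every pup, and was the only gene whose pups did not overlap those of the next in order. *Gabra5* followed at 117 ± 17.5 TPM, then *Gad1*, *Gabbr2* and *Glrb* at 105, 103.7 and 98.5 TPM, and none of these neighbours differed beyond the spread between pups. At the low end, *Glra3*, *Gabrq* and *Gabra6* had means of 0.970, 0.858 and 0.851 TPM. *Gabra6* encodes a subunit known from cerebellar granule neurons, and its expected counts ran from 3 to 118 per pup. *Glra3* counts ran from 1 to 78, so that values of these 3 genes rest on few reads.

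**Figure D1:**
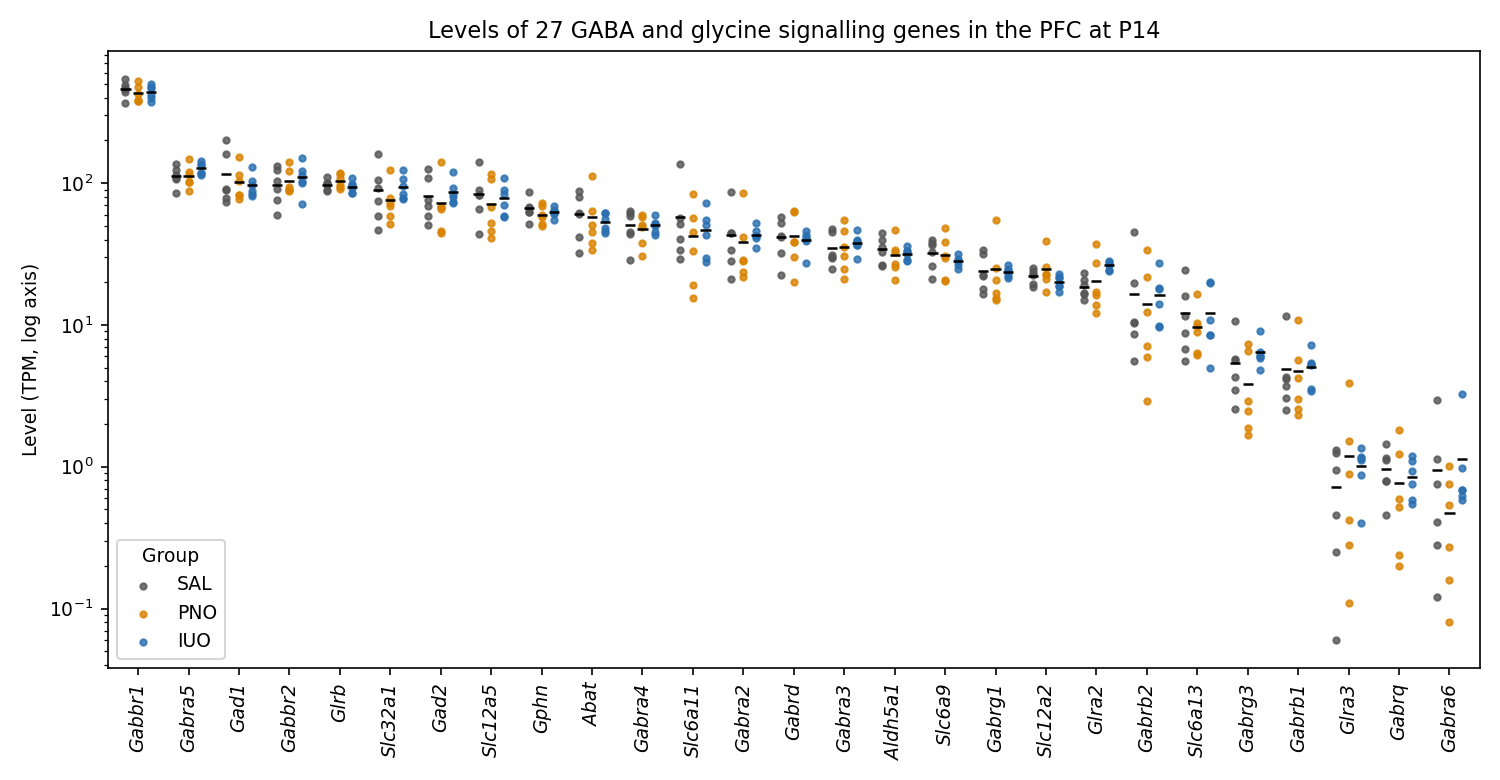
Level of each of the 27 genes in TPM on a log axis, ordered by the mean over 18 pups. Points are pups, colours are groups, and black bars are group means; the points of Gabbr1 lie above all others, and the 3 groups overlap for nearly every gene, Glra2 in IUO and SAL being the exception.

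Exposure was compared gene by gene with edgeR's quasi-likelihood test on the counts, and none of the 27 genes passed it. At an adjusted p under 0.05, 0 members passed in PNO against SAL, where 0.0% of all genes tested did, 0 in IUO against SAL (0.0%) and 0 in IUO against PNO (0.0637%). The smallest adjusted p of a member was 0.912, 0.561 and 0.167. Without adjustment, p was under 0.05 for 1 member in PNO against SAL (3.70%, against 4.5% of all genes), 1 in IUO against SAL (3.70%, against 6.88%) and 3 in IUO against PNO (11.1%, against 15.3%), each share being below that of all genes. By direction, 1 was higher in PNO than in SAL (1.89% of all genes) and 0 lower (2.6%), 1 was higher in IUO than in SAL (3.02%) and 0 lower (3.87%), and 1 was higher in IUO than in PNO (6.14%) and 2 lower (9.14%). Pups of the groups did not overlap for 0 members in PNO against SAL (0.108% of all genes), 1 in IUO against SAL (0.745%) and 0 in IUO against PNO (1.66%). DESeq2 called 0 members in each comparison, where it called 0.00637%, 0.312% and 2.78% of all genes (in the order used above), and 1, 1 and 3 members were at its unadjusted threshold (5.07%, 7.59% and 16.4% of all genes). In the same order limma-voom called 0, 0 and 3 members (0.0%, 0.274% and 12.9% of all genes), with 0, 6 and 8 at its unadjusted threshold (6.69%, 17.3% and 34.0%). PNO and IUO are set against the same SAL pups, and so the 2 comparisons with SAL are not independent.

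The median log2 fold change of the members was -0.04 in PNO and 0.01 in IUO relative to SAL, and 0.04 in IUO relative to PNO, and that of all genes was 0.00, -0.01 and 0.00. In PNO 12 members were fitted above SAL and 15 below (50.8% and 49.2% of all genes), in IUO 15 were above SAL and 12 below (48.0% and 52.0%), and 16 were above PNO and 11 below (49.9% and 50.1%). The precision was uneven. Standard errors ranged from 0.05 on the log2 scale for *Gphn* to 0.70 for *Gabra6* between PNO and SAL, with a median of 0.21. The 95% interval lay within 1.5-fold in either direction for 14, 13 and 12 members, and reached past 1.5-fold for the rest.

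**Figure D2:**
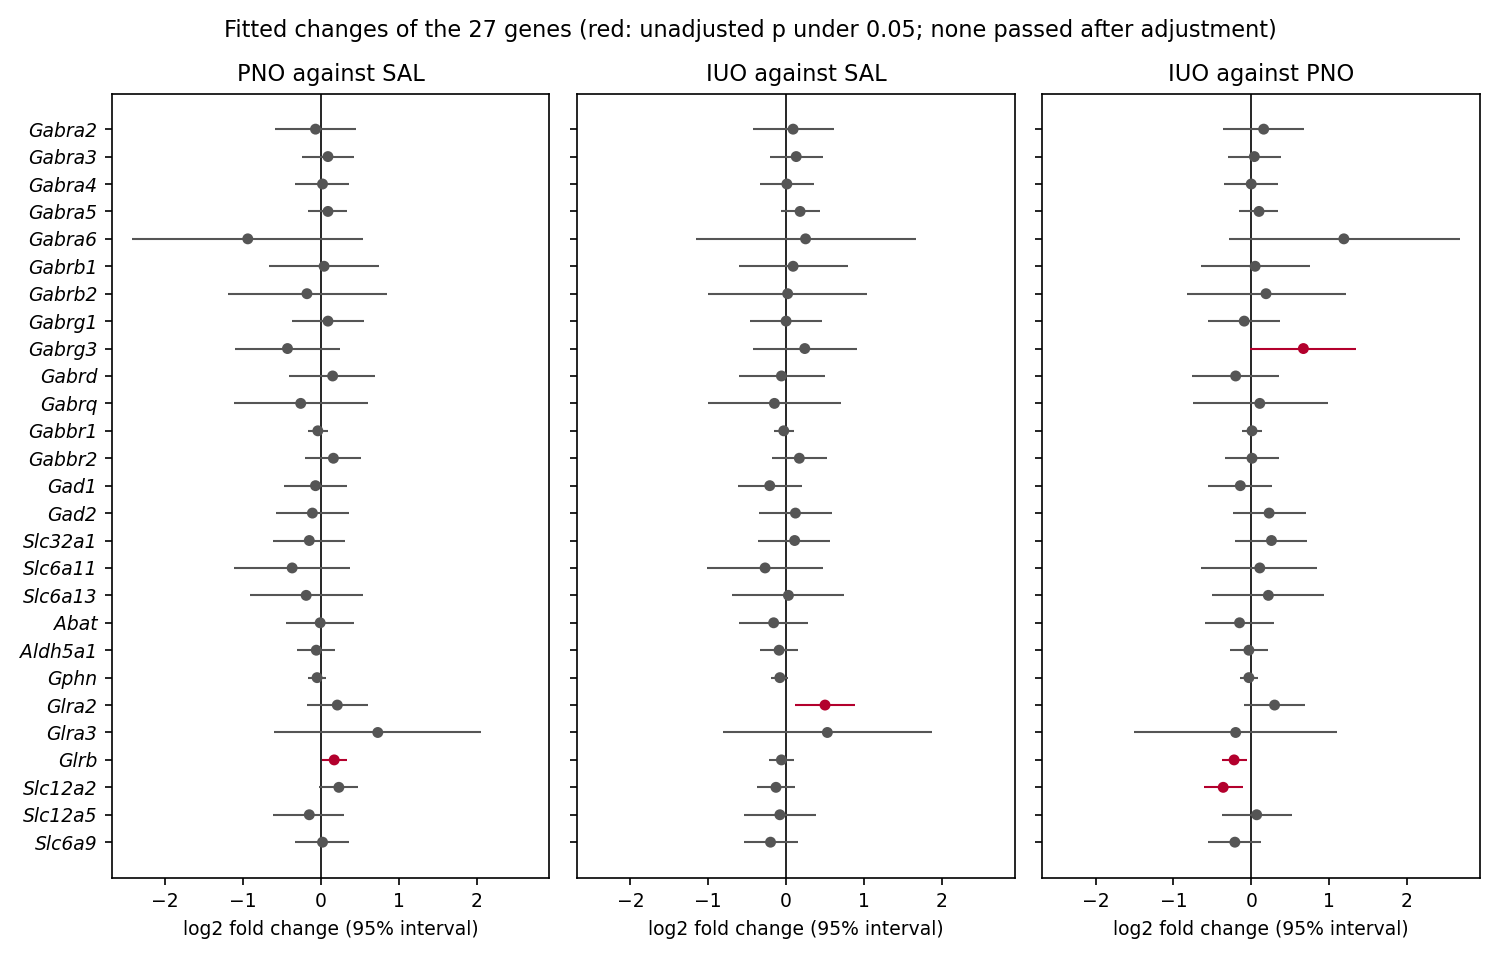
Fitted log2 fold change of each gene (points) with its 95% interval (lines) in the 3 comparisons, from edgeR's fit. Red marks an unadjusted p under 0.05, which was reached by Glrb in PNO against SAL, by Glra2 in IUO against SAL, and by Gabrg3, Glrb and Slc12a2 in IUO against PNO.

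Among the receptor subunits for glycine, *Glra2* separated IUO from SAL. It encodes the alpha subunit that prevails in the immature brain, and lies on the X chromosome. Its level was 28.4, 35.8 and 42.9 CPM (lowest, median and highest of 6 pups) in SAL, 26.6, 34.4 and 64.4 in PNO, and 46.0, 50.8 and 54.9 in IUO. All 6 IUO pups lay above all 6 SAL pups, in TPM too, with 23.8 to 28.0 against 14.9 to 23.1, while PNO spread across both. *Glra2* was the only member whose IUO and SAL pups did not overlap. The fitted log2 change was 0.50 (SE 0.18, 95% interval 0.11 to 0.89), with an adjusted p of 0.561 by edgeR, so that it did not pass over all genes. It kept to between 0.45 and 0.56 with any SAL or IUO pup left out, and was 0.58 with the level of the myelin markers in the model and 0.49 with the mean transcript length, both added after the data were seen. The sex of the pups is not given per library, and its part in this X-linked gene was not tested.

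*Glrb*, the beta subunit that ties the glycine receptor to gephyrin, was measured at 191, 227 and 247 CPM (lowest, median, highest) in SAL, 236, 249.6 and 264 in PNO and 197, 205 and 251 in IUO. PNO pups were close together and stood at the upper end of the range. Its log2 difference was 0.17 (SE 0.08, adjusted p = 0.912, edgeR) between PNO and SAL and -0.22 (SE 0.08, adjusted p = 0.179) between IUO and PNO. *Gphn*, the scaffold under inhibitory synapses, had among the tightest levels of the set, with 51.4 to 86.3 TPM in SAL, 50.2 to 72.2 in PNO and 55.3 to 68.5 in IUO, and its 95% intervals, -0.17 to 0.06 and -0.20 to 0.03 on the log2 scale for PNO and IUO against SAL, leave room for small differences only. *Glra3* was too low to compare, with fitted log2 changes of 0.73 (SE 0.63) in PNO and 0.53 (SE 0.63) in IUO against SAL.

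**Figure D3:**
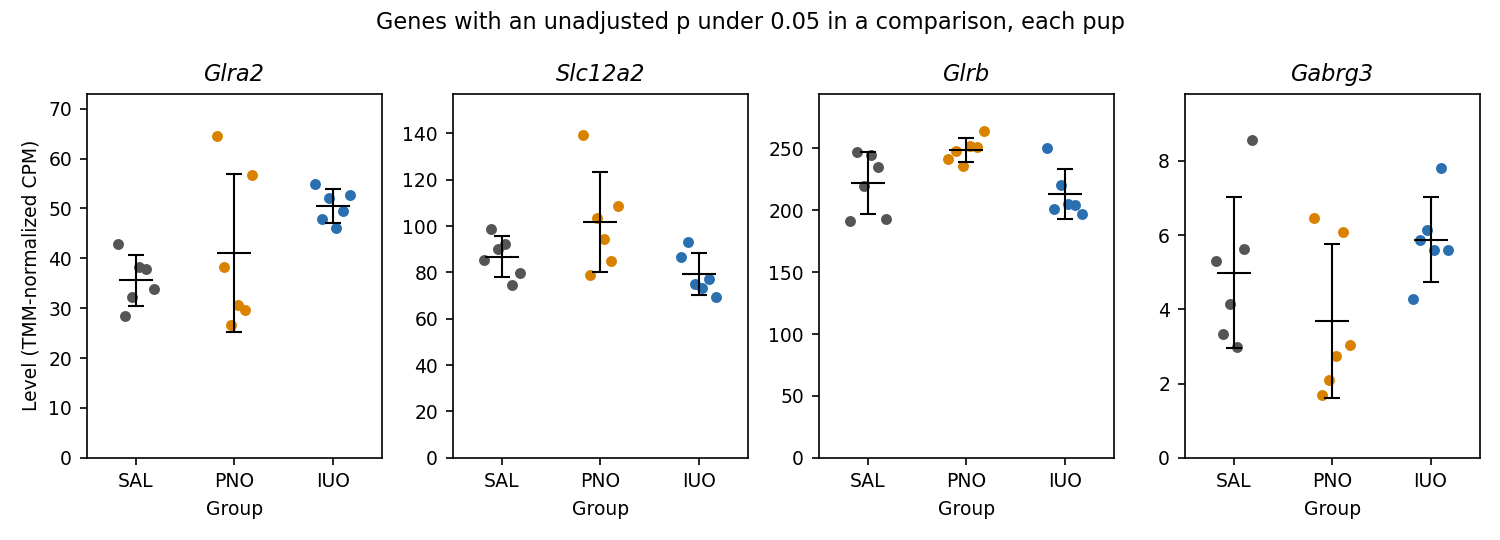
Level in TMM-normalized CPM of Glra2, Slc12a2, Glrb and Gabrg3 in every pup; bars show the mean and SD of 6 pups. The IUO points of Glra2 lie above all SAL points, and for Slc12a2 PNO replicate 1 stands highest at 139 CPM.

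Chloride transport was read from *Slc12a2*, which encodes the importer NKCC1, and *Slc12a5*, which encodes the neuronal exporter KCC2. *Slc12a2* had 74.6, 87.7 and 98.6 CPM (lowest, median, highest) in SAL, 79.1, 99.0 and 139 in PNO, and 69.4, 76.1 and 93.3 in IUO. The groups overlapped, and the median of IUO was the lowest. Between IUO and PNO the log2 difference was -0.36 (SE 0.12, 95% interval -0.61 to -0.11), with an adjusted p of 0.167 by edgeR, and between PNO and SAL it was 0.23 (SE 0.12, adjusted p = 0.912). Without PNO replicate 1 the difference of IUO from PNO was -0.26.

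*Slc12a2* is used by oligodendrocytes as well as neurons, and the markers of myelinating oligodendrocytes moved in the same direction. Their mean over 10 genes was 174 to 935 CPM in SAL, 294 to 1488 in PNO and 222 to 566 in IUO. Between IUO and PNO all 10 were lower in IUO at an unadjusted p under 0.05 (9.14% of all genes), with a median log2 of -1.37. Of these edgeR called 0 (0.0637% of all genes), DESeq2 9 (2.78%) and limma-voom 10 (12.9%). Across the 18 pups, as deviations from group means, *Slc12a2* followed this level with r = 0.71 (permutation p = 0.0018) and rho = 0.85 (permutation p = 7e-05), and r was 0.79 without the 2 pups farthest out. The r within SAL, PNO and IUO was 0.73, 0.74 and 0.80, and the adjusted p over the 297 relations of members with marker lists was 0.056. Markers of oligodendrocyte precursors (8 genes) had a like r with *Slc12a2*, 0.72 (permutation p = 0.0043, adjusted 0.099), with rho = 0.60 (permutation p = 0.018), but r was 0.54 without 2 pups and 0.77, 0.97 and -0.03 within SAL, PNO and IUO. Of these 8, 3 were lower in IUO than in PNO at an unadjusted p under 0.05 (9.14% of all genes) and 0 were called by edgeR (0.0637%), with a median log2 of -0.28. The mean of the 8 was 46.2 to 65.3 CPM in SAL, 49.6 to 89.7 in PNO and 44.0 to 64.4 in IUO. With the myelin marker level in the model, an alternative added after the data were seen, the differences of IUO from PNO were -0.10 for *Slc12a2*, -0.14 for *Glrb* and 0.18 for *Gabrg3*, and 0 of the 27 genes were at an unadjusted p under 0.05 in that comparison. The share of all genes at that threshold fell too, from 15.3% to 9.08%, and calls over all genes went from 10 to 0. The myelin marker level itself differed between these groups, with a median of 302 CPM in IUO and 1037 in PNO. This fit cannot separate that level from exposure, and the part of oligodendrocytes in the difference of *Slc12a2* was not tested.

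*Slc12a5* was measured at 43.7, 82.5 and 139.8 TPM (lowest, median, highest) in SAL, 40.7, 60.2 and 116 in PNO and 58.0, 76.7 and 108.2 in IUO, with wide overlap. Its fitted log2 differences were -0.15 in PNO and -0.08 in IUO from SAL and 0.07 in IUO from PNO, each with an SE of 0.21. The ratio of *Slc12a5* to *Slc12a2*, compared as TPM, was 3.78 ± 1.27 (SD, n = 6) in SAL, 2.88 ± 0.962 in PNO and 3.93 ± 1.06 in IUO. In every pup the exporter exceeded the importer, by 2.0-fold in PNO replicate 3 up to 5.86-fold in SAL replicate 6. The log2 ratio differed by -0.38 (SE 0.26) in PNO relative to SAL (exact permutation test, two-sided, p = 0.171), by 0.07 (SE 0.26) in IUO relative to SAL (exact permutation p = 0.775) and by 0.46 (SE 0.24) between IUO and PNO (exact permutation p = 0.106), none of them past the test. *Slc6a9*, the glycine transporter GlyT1, was at 21.0 to 39.6 TPM in SAL, 20.4 to 48.4 in PNO and 24.9 to 31.6 in IUO.

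GABA synthesis rests on *Gad1* and *Gad2*, which encode the glutamate decarboxylases GAD67 and GAD65. *Gad1* had 152, 181 and 333 CPM (lowest, median, highest) in SAL, 181, 192 and 274 in PNO and 148, 181 and 268 in IUO. *Gad2* had 198, 252 and 412 CPM in SAL, 178, 233 and 435 in PNO and 227, 285 and 424 in IUO. The groups overlapped for each, with log2 differences of -0.07 (SE 0.19) and -0.21 (SE 0.19) for *Gad1* and of -0.11 and 0.12 (SE 0.22 each) for *Gad2* in PNO and IUO against SAL. In TPM, *Gad1* exceeded *Gad2* in every pup, by 1.07 to 1.84-fold in SAL (median 1.42), by 1.08 to 1.81-fold in PNO (median 1.63) and by 1.05 to 1.23-fold in IUO (median 1.11). IUO pups kept to the lower end of the range, with replicates 1 and 4 below every SAL and PNO pup, and SAL replicates 3 and 5 and PNO replicates 1 and 3 also lay there.

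The log2 ratio of *Gad1* to *Gad2* was lower in IUO by 0.30 than in SAL (difference -0.30, SE 0.12, exact permutation test, two-sided, p = 0.0368) and by 0.41 than in PNO (difference -0.41, SE 0.13, exact permutation p = 0.0216). After adjustment over the 30 comparisons of 10 ratios the values were 0.276 and 0.216, and 0 ratios passed, with 4 at an unadjusted p under 0.05 (1 with pups paired by replicate number). The 12 striatal markers, listed for GABA neurons of the striatum, had a median log2 of 0.46 in IUO against SAL and 0.75 in IUO against PNO. By edgeR 0 of them were called (0.0% and 0.0637% of all genes). Between IUO and PNO 2 were higher in IUO at an unadjusted p under 0.05 (6.14% of all genes). Within groups the striatal level had r = 0.57 with *Gad2* and 0.18 with *Gad1*, given in full with the relations further on, and the part of these markers in the ratio was not tested. The other pair was *Gphn* to *Glrb*, which was 0.680 ± 0.108 (SD, n = 6) in SAL, 0.576 ± 0.0282 in PNO and 0.665 ± 0.0601 in IUO. That log2 ratio differed by -0.23 between PNO and SAL (SE 0.09, exact permutation p = 0.0195) and by 0.20 between IUO and PNO (SE 0.06, exact permutation p = 0.0152), with an adjusted p of 0.216 for each. The smallest p that 6 against 6 pups can give is 0.00216. The remaining comparisons, among them *Gabra4* to *Gabra2*, *Gabrb2* to *Gabrb1* and *Gabbr1* to *Gabbr2*, stayed above the unadjusted threshold.

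**Figure D4:**
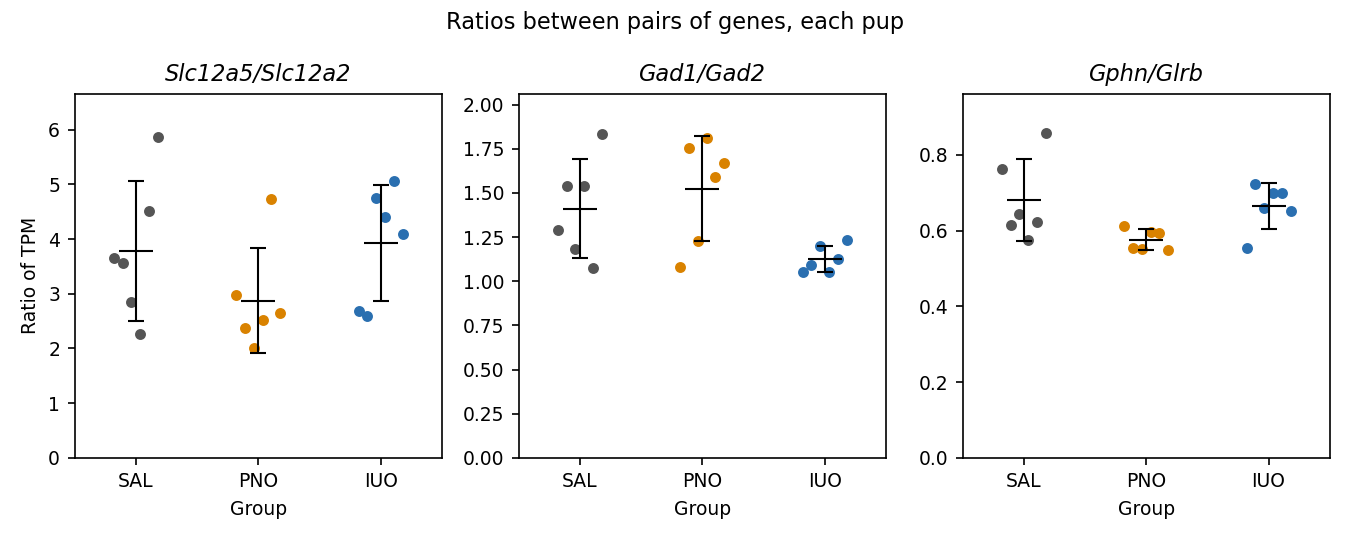
Ratio of TPM of Slc12a5 to Slc12a2, Gad1 to Gad2 and Gphn to Glrb in every pup; bars show the mean and SD of 6 pups per group. Ratios of Gad1 to Gad2 in IUO lie between 1.05 and 1.23, at or below the lower part of the SAL and PNO ranges, with IUO replicates 1 and 4 under every SAL and PNO pup.

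Among the other genes of GABA handling, *Slc32a1*, the vesicular GABA transporter, was at 46.4 to 161 TPM in SAL, 51.8 to 123 in PNO and 77.6 to 122.9 in IUO. The glial GABA transporter *Slc6a11* (GAT3) ranged more widely, from 15.4 TPM in PNO replicate 2 to 136 in SAL replicate 6. *Slc6a13* (GAT2), known from the meninges, ran from 4.99 to 24.2 TPM. *Abat*, the GABA transaminase, and *Aldh5a1*, the next enzyme in the breakdown of GABA, had group means of 53.0 to 60.4 TPM and of 31.0 to 34.2 TPM. All 7 genes of synthesis, loading, uptake and breakdown were fitted below SAL in PNO, between -0.37 (*Slc6a11*, SE 0.35) and -0.01 (*Abat*, SE 0.21), where 49.2% of all genes were fitted lower, and none passed with or without adjustment. In IUO 3 were fitted above SAL and 4 below. One-sided groups of members occurred elsewhere too. All 5 alpha and 2 beta subunits were fitted above SAL in IUO (48.0% of all genes), and all 3 chloride and glycine transporters below (52.0%). Markers of interneurons, the cells that make GABA, had a mean over 14 genes of 48.6 to 76.4 CPM in SAL, 47.2 to 71.8 in PNO and 44.0 to 59.7 in IUO. Of these 14, *Pvalb* alone was called between IUO and PNO by edgeR (0.0637% of all genes were). DESeq2 called *Pvalb* there and between IUO and SAL, and limma-voom called 5 of the 14 between IUO and PNO, namely *Pvalb*, *Dlx1*, *Dlx2*, *Lhx6* and *Adarb2* (12.9% of all genes were called). Between IUO and PNO 9 of the 14 were fitted higher in IUO (49.9% of all genes) and 5, *Pvalb* among them, lower, with a median log2 of 0.54, and at an unadjusted p under 0.05 by edgeR 2 were higher (6.14% of all genes) and 1 lower (9.14%). The edgeR log2 differences were 1.36 (SE 0.46) for *Dlx2* and 0.95 (SE 0.35) for *Dlx1*, homeobox genes of developing GABA neurons, with adjusted p of 0.177 and 0.211, and 0.58 (SE 0.37) for *Lhx6* and 0.55 (SE 0.53) for *Adarb2*. Relative to SAL, 10 of the 14 were fitted lower and 4 higher in IUO (median log2 -0.13), with *Pvalb* at -1.55 (SE 0.41, adjusted p = 0.343), and 10 lower and 4 higher in PNO (median log2 -0.54). At an unadjusted p under 0.05, 2 were lower and 0 higher in PNO than in SAL (2.6% and 1.89% of all genes), which were *Dlx2* at -1.51 (SE 0.46) and *Dlx1* at -1.07 (SE 0.35), each with an adjusted p of 0.912. In IUO relative to SAL these were at -0.14 (SE 0.44) and -0.12 (SE 0.34). *Pvalb*, which marks fast-spiking interneurons, was at 2.60 to 5.93 CPM in IUO, 10.4 to 33.5 in PNO and 3.42 to 24.6 in SAL, with a log2 difference of -2.34 (SE 0.41, adjusted p = 0.0356) between IUO and PNO.

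Of the 11 GABA-A receptor genes, edgeR called 0 in each comparison, and only *Gabrg3* was at an unadjusted p under 0.05, between IUO and PNO. The alpha subunits known from synaptic and extrasynaptic receptors of the forebrain ranked *Gabra5*, *Gabra4*, *Gabra2* and *Gabra3*, at 117, 49.4, 41.5 and 36.0 TPM. *Gabra4* was at 28.5 to 63.7 TPM in SAL, 30.8 to 59.1 in PNO and 43.2 to 59.4 in IUO. *Gabra2* had 21.0 to 87.2 TPM in SAL, 21.6 to 85.4 in PNO and 35.0 to 52.0 in IUO, and *Gabra3* had 24.7 to 47.6, 21.2 to 55.3 and 29.1 to 46.9 TPM. For these genes the IUO pups fell inside the range of SAL. *Gabra5* was at 84.6 to 136 TPM in SAL, 88.3 to 148 in PNO and 115 to 143 in IUO, with a log2 difference of 0.18 (SE 0.12, 95% interval -0.07 to 0.44) between IUO and SAL. *Gabrd*, the extrasynaptic delta subunit, had 22.6 to 57.6 TPM in SAL, 19.9 to 63.4 in PNO and 27.2 to 46.3 in IUO. *Gabrb2* varied most among the genes above 1 TPM, from 2.93 TPM in PNO replicate 2 to 45.2 in SAL replicate 6. *Gabrb1* was lower, at 2.30 to 11.6 TPM, and *Gabrg1* lay at 15.0 to 54.5 TPM. *Gabrq*, the theta subunit, was at 0.46 to 1.44 TPM in SAL, 0.20 to 1.82 in PNO and 0.55 to 1.19 in IUO.

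*Gabrg3*, a gamma subunit found at a low level, had 2.98, 4.71 and 8.57 CPM (lowest, median, highest) in SAL, 1.69, 2.89 and 6.47 in PNO and 4.29, 5.73 and 7.80 in IUO. Of the PNO pups, 4 lay below every IUO pup, and the other two lay within the IUO range. The log2 difference between IUO and PNO was 0.67 (SE 0.32, adjusted p = 0.324, edgeR). With a pup left out it went from 0.52 without PNO replicate 2 to 0.91 without PNO replicate 1. It was 0.57 with the mean transcript length in the model, which *Gabrg3* followed at r = 0.83 (permutation p = 2e-05, rho = 0.86, permutation p = 1e-05, r = 0.81 without 2 pups), and 0.18 with the myelin marker level, and limma-voom, which weights pups by quality, called it at 0.97 among 2028 genes called. Of the GABA-B subunits, *Gabbr1* was fitted at -0.04, -0.03 and 0.01 in the 3 comparisons with an SE of 0.06, and *Gabbr2* at 0.16, 0.17 and 0.01 with an SE of 0.16.

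Spread between pups was wide for many of the genes. The highest pup exceeded the lowest, in CPM, by a median of 2.49-fold over the members, against 1.94-fold over 15410 genes above 0 in every pup. *Gabbr1* had the smallest range, 1.26-fold, and *Gphn* the next at 1.28-fold, whereas *Slc6a11* and *Gabrb2* reached 6.37-fold and 11.2-fold. PNO replicate 1 was the highest pup for 11 of the 27 genes and SAL replicate 6 for 8, and PNO replicate 2 was the lowest for 9. The SD of log2 CPM was smallest in IUO for 21 of the 27 genes (77.8%), compared with 61.0% of all genes tested, and for 18 to 23 with any pup left out. Median SDs of the members were 0.41 in SAL, 0.48 in PNO and 0.27 in IUO, and those of all genes were 0.26, 0.27 and 0.19. The difference in spread between the groups was not tested, and this comparison was added after the data were seen.

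Some genes of the set varied together. All 351 pairs were compared as deviations from group means over the 18 pups, a comparison added after the data were seen, with p-values by permutation and adjusted over the pairs. Of these pairs 62 had an adjusted p under 0.05, 54 of them positive and 8 negative, and the median r of all pairs was 0.24. Over the 123284253 pairs of all genes tested, the median r was 0.00. An r of 0.8 or more was found for 19 pairs of members (5.41%) and for 1.91% of the pairs of all genes, and an r of -0.8 or less for 3 pairs (0.855%) and 1.67%, so that strong correlations also occurred among genes at large, and pairs that share a gene are not independent. A first group held *Gabrb1*, *Gabrb2*, *Gabrg3*, *Slc12a5* and *Slc6a11*, all of whose pairs had r of 0.82 or more. *Gabrb2* with *Slc12a5* gave r = 0.93 (permutation p = 1e-05, the smallest possible) and rho = 0.92 (permutation p = 2e-05), with r = 0.89 without the 2 pups farthest out and 0.88, 0.95 and 0.99 within SAL, PNO and IUO. *Gabra2* joined them through *Gabrb1*, with r = 0.87 (permutation p = 0.00023), rho = 0.76 (permutation p = 0.00024) and r = 0.64 without 2 pups.

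This first group followed the mean transcript length of the library. In log2 CPM over 18 pups, *Slc12a5* had r = 0.91 and rho = 0.91 with it (permutation p = 1e-05 for each, adjusted over 27 genes 9e-05), and r was 0.88 without the 2 pups farthest out and 0.95, 0.95 and 0.80 within SAL, PNO and IUO. For *Gabrb2* r was 0.89 and rho 0.91 (permutation p = 1e-05 for each), and r was 0.86 without 2 pups. SAL replicate 6 and PNO replicate 1, which had the longest mean transcript of their groups at 1786 and 1712 bases, were the highest of their groups for *Gabrb1*, *Gabrb2* and *Slc6a11*. Whether this length reflects the RNA or the tissue sampled was not tested. The share of all genes that followed it as closely is not given here, so the relation is not shown to be particular to these genes. *Gad1*, *Gabra4*, *Gabrd* and *Slc12a2* had r of 0.22, 0.16, -0.12 and -0.09 with it (permutation p = 0.39, 0.52, 0.64 and 0.72), rho of -0.03, 0.12, -0.03 and -0.33 (permutation p = 0.90, 0.62, 0.89 and 0.18) and r of -0.12, -0.03, -0.27 and 0.01 without 2 pups.

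**Figure D5:**
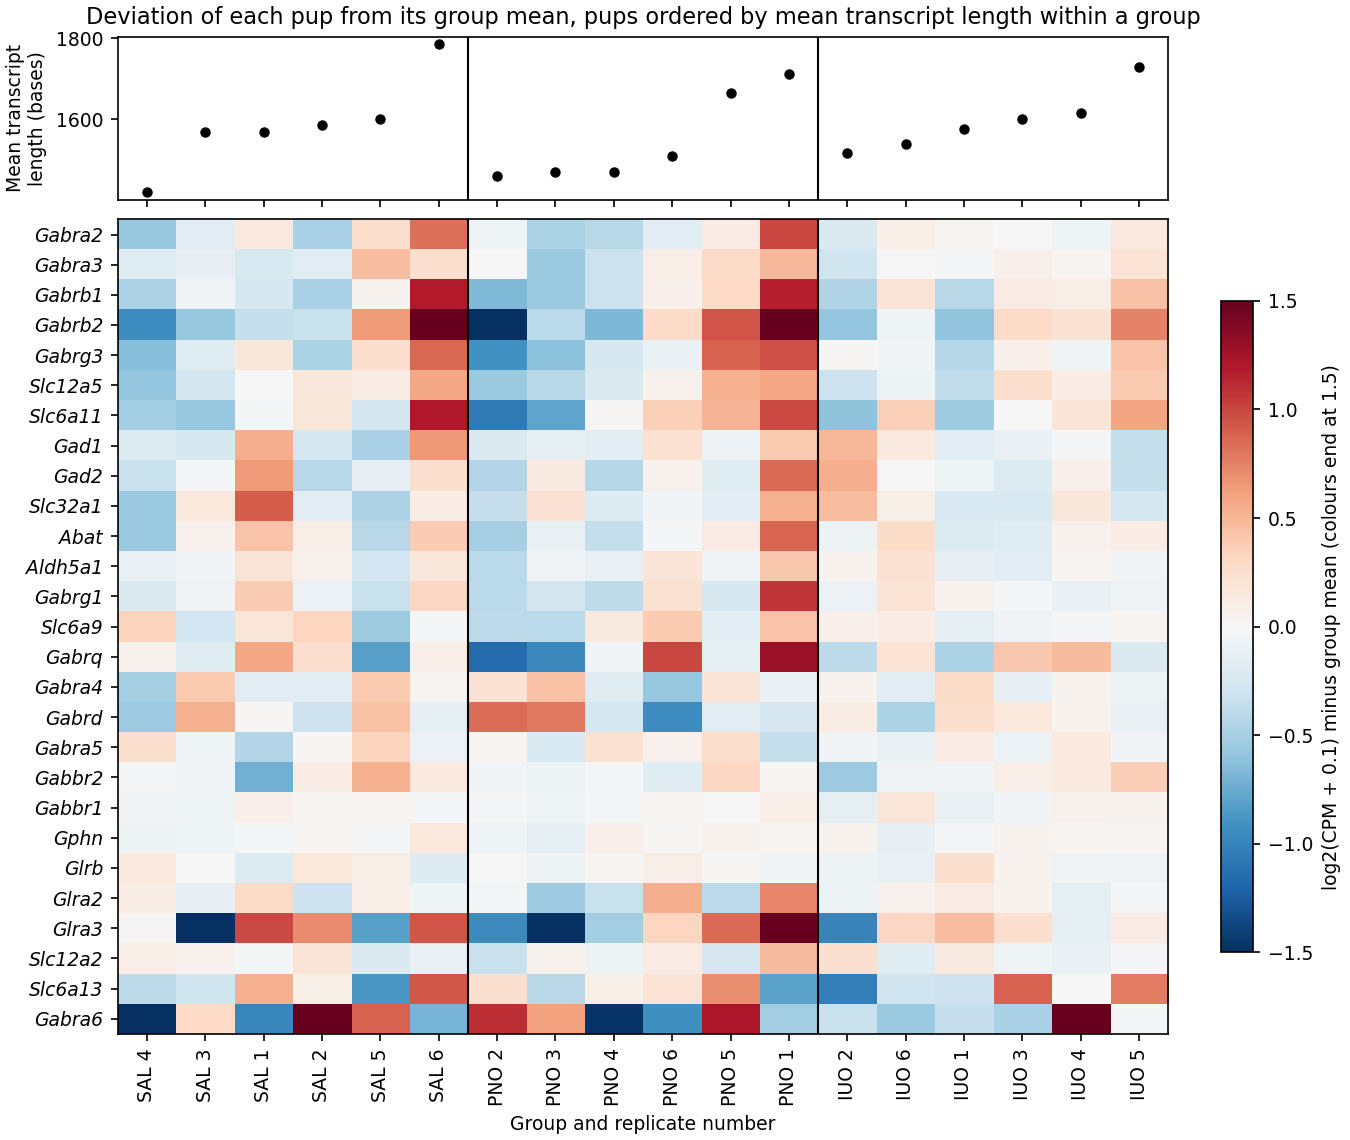
Deviation of every gene in every pup from its group mean, as log2(CPM + 0.1), with pups ordered within each group by the mean transcript length plotted above. The rows from Gabra2 to Slc6a11 turn from blue to red with length in the 3 groups, Gabrd and Gabra4 run opposite to Slc6a9, and colours are paler in IUO.

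A further group joined *Gabra4* and *Gabrd*, subunits that are known to assemble in extrasynaptic receptors, with r = 0.87 (permutation p = 2e-05), rho = 0.87 (permutation p = 4e-05) and r = 0.80 without 2 pups. *Slc6a9* ran opposite to both. With *Gabra4* it had r = -0.88 (permutation p = 0.00012) and rho = -0.87 (permutation p = 0.00025), and r was -0.86 without 2 pups. The level of 7 genes listed as thalamic markers ran opposite to *Gabrd*, at r = -0.88 and rho = -0.93 (permutation p = 1e-05 for each, adjusted over 297 relations 0.0015) and r = -0.87 without 2 pups. With *Gabra4* it had r = -0.84 (permutation p = 8e-05, adjusted 0.0048), and with *Slc6a9* r = 0.79 (permutation p = 4e-05, adjusted 0.004). The most abundant of the 7, *Calb2* and *Slc17a6*, are also among the interneuron and glutamatergic markers used here, so the list is not specific to thalamus. Its level was 19.8 to 66.4 CPM in SAL, 16.1 to 76.2 in PNO and 24.1 to 82.0 in IUO, and the part of this level in the pattern was not tested.

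A group of GABAergic genes held *Gad2* and *Slc32a1*, with r = 0.87 (permutation p = 2e-05), rho = 0.83 (permutation p = 8e-05) and r = 0.81 without 2 pups. Among 8 relations fixed for the test, *Gad1* followed *Gad2* over all pups with r = 0.69 (permutation p = 0.0015, adjusted p = 0.006) and rho = 0.57 (permutation p = 0.016), at r = 0.81, 0.85 and 0.95 within SAL, PNO and IUO and 0.59 without 2 pups. *Gad1* followed *Slc32a1* with r = 0.65 (permutation p = 0.0033, adjusted p = 0.0088) and rho = 0.52 (permutation p = 0.027), at r = 0.72, 0.71 and 0.93 within SAL, PNO and IUO and 0.45 without 2 pups. With the interneuron and striatal markers *Gad1* showed no relation past the threshold, at r of -0.03 and 0.08 (permutation p = 0.92 and 0.74), rho of -0.09 and 0.00 (permutation p = 0.74 and 0.99) and r of -0.49 and -0.31 without 2 pups. In log2 TPM the interneuron relation was negative, at r = -0.44 (permutation p = 0.067, adjusted p = 0.11), rho = -0.57 (permutation p = 0.014) and r = -0.35 without 2 pups. Within SAL, PNO and IUO r was then -0.76, -0.56 and -0.57. The most abundant interneuron markers were *Cck*, *Sst* and *Calb2*, at 212, 181 and 147 CPM. As deviations from group means, the striatal level had r = 0.18 with *Gad1* (permutation p = 0.55, rho = 0.12, permutation p = 0.68, r = 0.06 without 2 pups). With *Gad2* it had r = 0.57 (permutation p = 0.02, adjusted over 297 relations 0.24) and rho = 0.46 (permutation p = 0.066), at r = 0.58, 0.52 and 0.73 within SAL, PNO and IUO and 0.48 without 2 pups. With *Slc32a1* it had r = 0.65 (permutation p = 0.011, adjusted 0.17) and rho = 0.51 (permutation p = 0.059), at r = 0.70, 0.66 and 0.49 within the groups and 0.49 without 2 pups. Choroid plexus markers had r = 0.52 with *Gad2* (permutation p = 0.044, adjusted 0.33, rho = 0.50, permutation p = 0.067, r = 0.44 without 2 pups) and r = 0.62 with *Slc32a1* (permutation p = 0.0094, adjusted 0.16, rho = 0.62, permutation p = 0.01, r = 0.56 without 2 pups). None of these relations passed over the 297, and the differences between *Gad1*, *Gad2* and *Slc32a1* in them were not tested. *Gad1* ran opposite to the glutamatergic markers, with r = -0.80 (permutation p = 7e-05, adjusted over 297 relations 0.0048), rho = -0.69 (permutation p = 0.0016) and r = -0.68 without 2 pups, on deviations from group means. *Slc32a1* and *Gad2* ran the same way without passing, at r = -0.77 and -0.70 (permutation p = 0.0015 and 0.0019, adjusted 0.056 for each). Their rho was -0.56 and -0.55, and r was -0.54 and -0.51 without 2 pups. *Gabbr2* followed these markers, at r = 0.87 (permutation p = 0.0003, adjusted 0.015), rho = 0.65 (permutation p = 0.0063) and r = 0.70 without 2 pups.

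*Slc6a13* followed the level of 9 meningeal fibroblast markers, with r = 0.89 and rho = 0.88 (permutation p = 1e-05 for each, adjusted p = 8e-05), r = 0.85 without 2 pups and 0.75, 0.95 and 0.99 within SAL, PNO and IUO. Those markers had a mean of 21.7 to 50.1 CPM in SAL, 22.2 to 54.0 in PNO and 17.6 to 59.6 in IUO. The remaining 3 relations did not pass in CPM. *Slc6a11* with astrocyte markers had r = 0.26 (permutation p = 0.30), rho = 0.20 (permutation p = 0.42) and r = 0.03 without 2 pups. In TPM it passed, with r = 0.71 (permutation p = 0.00093, adjusted p = 0.0019) and rho = 0.71 (permutation p = 0.001), at r = 0.83, 0.70 and 0.74 within SAL, PNO and IUO and 0.46 without 2 pups. *Slc12a2* with choroid plexus markers had r = 0.35 (permutation p = 0.15), rho = 0.27 (permutation p = 0.28) and r = 0.03 without 2 pups. *Slc12a5* with glutamatergic markers had r = 0.01 (permutation p = 0.98), rho = -0.01 (permutation p = 0.99) and r = -0.09 without 2 pups.

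*Abat* and *Aldh5a1*, consecutive enzymes of GABA breakdown, varied together with r = 0.87 (permutation p = 3e-05), rho = 0.84 (permutation p = 1e-04) and r = 0.86 without 2 pups. Neighbours in the genome (RefSeq, GRCr8) did not all share a pattern. *Gabra2* and *Gabrb1*, with 2 coding genes between them, had r = 0.87, whereas *Gabra4* and *Gabrb1*, with 0 between them, had r = -0.09 and rho = -0.15 (permutation p adjusted over the pairs 0.85). *Gabra2* and *Gabrg1*, also adjacent, had r = 0.71 and rho = 0.50 (permutation p adjusted over the pairs = 0.082). *Gabra5* and *Gabrg3* had r = -0.19 and rho = -0.21 (permutation p adjusted over the pairs = 0.69), and *Gabra6* and *Gabrb2* had r = 0.01 and rho = 0.11 (permutation p adjusted over the pairs = 0.97), each pair being adjacent.

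Partners of these genes were counted in 7 lists of 79 genes, of which 74 were in the files and 69 were tested. They cover receptor anchoring, GABA-B effectors, glutamine supply, glycine metabolism, chloride transport and its kinases, receptor modulators and other receptor subunits. By edgeR 0 were called in each comparison, with 1 higher and 1 lower at an unadjusted p under 0.05 in PNO against SAL (1.45% each, against 1.89% and 2.6% of all genes) and 1 and 1 in IUO against SAL (1.45% each, against 3.02% and 3.87%). In IUO against PNO 5 were higher (7.25%, against 6.14% of all genes) and 11 lower (15.9%, against 9.14%). DESeq2 called 0, 0 and 4, the 4 being 5.8% of the list against 2.78% of all genes, and limma-voom called 0, 0 and 17, the 17 being 24.6% against 12.9%. The smallest p between IUO and PNO belonged to *Akr1b10*, listed among the genes of endogenous modulators, at 6.14 to 8.04 CPM in IUO and 8.50 to 15.0 in PNO (log2 -0.75, SE 0.20, adjusted p = 0.112, edgeR). *Stk39*, which encodes the kinase SPAK that acts on NKCC1 and KCC2, was at 52.3 to 62.6 CPM in IUO and 57.7 to 72.2 in PNO (log2 -0.27, SE 0.08, adjusted p = 0.126). *Gcsh*, of the glycine cleavage system, had a log2 difference of -0.37 (SE 0.11, adjusted p = 0.127) and *Gabarapl1*, a relative of the receptor trafficking protein GABARAP, of -0.36 (SE 0.10, adjusted p = 0.127).

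Of glutamine supply, *Gls2*, a glutaminase, was at 13.6 to 20.0 CPM in IUO and 19.0 to 31.3 in PNO (log2 -0.48, SE 0.15, adjusted p = 0.164, edgeR). *Slc38a5*, a glutamine and glycine transporter, was lowest in PNO, at 7.86 to 11.9 CPM against 9.79 to 16.5 in SAL and 11.4 to 15.9 in IUO, with a log2 difference of -0.35 (SE 0.13, adjusted p = 0.912) between PNO and SAL and 0.40 (SE 0.13, adjusted p = 0.168) between IUO and PNO. *Dld*, of the glycine cleavage system, was at 0.14 (SE 0.06, adjusted p = 0.912) between PNO and SAL. In IUO relative to SAL, *Akr1b10* had a log2 difference of -0.54 (SE 0.20, adjusted p = 0.579) and *Shmt1*, an enzyme of glycine synthesis, of 0.39 (SE 0.17, adjusted p = 0.673).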

How the data were processed

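Bulk PFC libraries of 18 rat pups were analysed, with groups and replicate numbers taken from the sample titles. The authors deposited, for each pup, an expected count per gene, in which reads matching several genes are divided between them, and TPM computed from it. FPKM was not used. The aligner, the genome build and strand handling are not given in the sources used here, so that reads of overlapping genes may be shared.

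After rounding, the expected counts entered edgeR 4.0.16 under R 4.3.3 (TMM, filterByExpr, glmQLFit and glmQLFTest over 3 groups with 15 residual degrees of freedom, two-sided), with Benjamini-Hochberg adjustment over 15703 genes. Calls were made at an adjusted p under 0.05. Intervals on fold changes are at 95%. Log2 CPM used a prior count of 2. Ratios of TPM were tested by exact permutation over 12 pups, and correlations with 100000 permutations. DESeq2 1.42.0 and limma-voom (limma 3.58.1) with quality weights were alternatives, beside other scalings and filters, relations in log2 TPM with a pseudocount of 0.1, only the 12 pups compared, a replicate block and each pup left out. Tables used Python 3.11.15, scipy 1.17.1 and matplotlib 3.10.9. In simulated data with 200 genes set to change between IUO and SAL, edgeR recovered 73.9% at 3.29% false calls (15566 genes run). That share holds for the sizes of change simulated only. Recovery at the sizes fitted for most of the genes described here was not tested.

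No pair of pups of a group was a repeat of 1 library (chi-square per degree of freedom 10.6 to 173 over 45 pairs), and each pup counted as 1 sample. The 27 genes, the marker lists and the pathway lists were chosen with earlier results of these data known. All 27 are named, and of the pathway lists up to 6 genes per comparison with the smallest unadjusted p under 0.05. Pvalb was named after its value was seen. Sequences are from RefSeq (GRCr8), and 3 genes without an entry there are named only.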

Additional observations from a re-analysis of the deposited data

Results flagged for a closer look

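In groups of 6 pups, a pup far from the others for its group was found for 3 of 111 groups of values (gene levels and ratios), where chance gives about 1 in 20. For *Gabra6*, IUO replicate 4 stood at 2.33 log2 CPM and the nearest IUO pup at 0.56. For *Gabrb1*, SAL replicate 6 stood at 3.52 and the nearest SAL pup at 2.38, and this pup also had the longest mean transcript of its group, 1786 bases. For *Gphn*, IUO replicate 6 was low at 6.54 with the nearest at 6.65, a small gap in a group that was otherwise tight.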

How the results depend on the processing

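Of the 27 genes, edgeR called 0 in every comparison under each other scaling, filter, set of pups and covariate tried. It also called 0 with any pup of the groups compared left out (0 to 0), and DESeq2 called 0. The count was 3 between IUO and PNO with limma-voom, which called *Gabrg3* (0.97), *Glrb* (-0.26) and *Slc12a2* (-0.36), and without adjustment it was 1 for each exposed group against SAL and 3 for IUO against PNO. The number at an unadjusted p under 0.05 moved more. For PNO against SAL it went from 1 to 0 without library size normalization, with limma-voom, in the 12 pups alone, with the replicate block and with the myelin marker level as covariate, and to between 0 and 2 with a pup left out. For IUO against SAL it went from 1 to 6 with limma-voom and to between 1 and 2 with a pup left out. For IUO against PNO it went from 3 to 8 with limma-voom, to 0 with the myelin marker level (where the share of all genes went from 15.3% to 9.08%), and to between 2 and 6 with a pup left out, 6 being without PNO replicate 1. The causes of these moves were not tested. None of the fold changes of *Glrb*, *Glra2*, *Gabrg3* and *Slc12a2* changed sign. Ratios passed in 0 cases throughout, the smallest adjusted p being 0.0649 without SAL replicate 4 or IUO replicate 1. Ratio comparisons at an unadjusted p under 0.05 numbered 4, and 1 with the replicate block (sign-flip test, smallest adjusted p 0.586) and 3 to 6 with a pup left out, 6 being without PNO replicate 5. Of the 8 relations 3 passed, and 4 in log2 TPM with a pseudocount of 0.1, the added one being *Slc6a11* with astrocyte markers, and 3 as deviations from group means.

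The labels give same-numbered pups of different groups nothing in common but the number, and the correlations of same-numbered pups fell on both sides of 0, so the numbers were not taken to pair the pups. Their deviations were correlated at 0.232 on average between PNO and SAL (-0.0589 to 0.488), at -0.0266 between IUO and SAL and at 0.0626 between IUO and PNO, and 6, 1 and 4 of 12 pups correlated best with their own number, where 2 would if numbers meant nothing. A shared origin of same-numbered PNO and SAL pups was not tested. With the replicate block 0 of the 27 genes were called in each comparison, where 6 of all genes were called between IUO and PNO (10 without the block). Depth limits *Gabra6*, *Glra3* and *Gabrq* most, with as few as 3, 1 and 5 counts in a pup.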
